A study of Homo sapiens with 6 samples.

Results

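RNA polymerase III (Pol III) genes were examined in LNCaP-AI cells, a prostate cancer line kept without androgen as a cell model of castration-resistant disease. The 10 genes were chosen by name from 20308 genes in the expression tables: the Pol III subunits POLR3A, POLR3B, POLR3C, POLR3D, POLR3E, POLR3F and POLR3GL, the TFIIIB factors BRF1 and BDP1, and the Pol III repressor MAF1. No measured value entered the choice, and all 10 passed the filters of both tests used here. RNA-seq was performed on 3 libraries of cells with METTL1 knocked down by a short hairpin (shMETTL1). A further 3 libraries came from cells with a scrambled hairpin (shscramble). Both groups were under androgen deprivation, so the controls share it, and METTL1 is the catalytic subunit of a methyltransferase that places N7-methylguanosine (m7G) on tRNA and other RNA. The study lists a single target sequence for the METTL1 hairpin, and whether the cells were a pool or a clone is not given in the sources used here. Its statistics section says that all data came from 3 biological replicates, without naming the sequencing libraries. The labels do not name separate cultures, so p-values measure the spread between these libraries, which may be technical.

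Pol III makes short, non-coding RNAs, above all tRNAs, 5S rRNA and U6 snRNA. At tRNA genes, TFIIIC binds sequences inside the gene and recruits TFIIIB, which is built from TBP, BRF1 and BDP1 and in turn brings in the polymerase. MAF1 binds the polymerase and represses it when nutrients or growth signals are short, and METTL1 acts on tRNAs that this machinery makes. Transcripts of Pol III itself were not analysed here, so the values below are mRNA levels of the machinery and not its output.

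For each gene the tables gave FPKM (fragments per kilobase of transcript, scaled to library depth) and an estimated count, and both were tested. METTL1 itself stood at 9.02 ± 1.30 FPKM in shMETTL1 cells against 17.8 ± 3.62 FPKM in shscramble cells (SD, n = 3 each), 50.7% of its control level, and the groups did not overlap. The count test called it (edgeR log2 fold change −1.36, adjusted p = 0.0368, 0.00476 to 0.187 over the alternatives) and the FPKM test did not (limma log2 fold change −0.93, adjusted p = 0.127, 0.103 to 0.364 over the alternatives). All 10 luminal prostate markers were at 21.7 FPKM or more in every library, and their sum lay between 2148 and 2406 FPKM in shMETTL1 and between 2622 and 2687 FPKM in shscramble libraries. They did not move together: edgeR called 3 of the 10 lower, namely KLK2 (log2 fold change −1.23, adjusted p = 1.93e-05, 2.52e-19 to 0.000968 over the alternatives), KLK3 (−0.64, adjusted p = 0.00319, 2.68e-07 to 0.0446) and TMPRSS2 (−0.64, adjusted p = 0.0305, 0.00281 to 0.146), and limma called KLK2 as well (adjusted p = 0.0356, 0.0246 to 0.214). Over all genes tested, edgeR called 3.65% lower and 2.68% higher, and limma called 0.123%. KRT18 (133 ± 0.621 against 102 ± 6.94 FPKM in shMETTL1 against shscramble cells) and STEAP2 (179.7 ± 18.8 against 149.8 ± 5.70 FPKM) lay higher without overlap and were not called with all 6 libraries. Of 13 markers of blood, vessel, stromal, basal and neuroendocrine cells, 6 (PTPRC, CD3E, CDH5, DCN, KRT5 and CHGA) were at 0 in all libraries, and the 13 summed to 19.4 to 22.8 FPKM in shMETTL1 and 27.9 to 29.9 FPKM in shscramble libraries. Within this sum CD68, a macrophage marker, stood at 6.73 ± 1.19 FPKM in shMETTL1 against 14.6 ± 2.56 FPKM in shscramble cells (limma log2 fold change −1.06, adjusted p = 0.109, 0.0518 to 0.310 over the alternatives), and ACTA2, a smooth muscle marker, at 4.89 ± 0.329 against 1.70 ± 0.603 FPKM (1.33, limma adjusted p = 0.125, 0.0604 to 0.346), both without overlap and neither called. The part of these markers in the results was not tested. Replicate 2 of shscramble stood apart from its group: its median absolute log2 difference from shMETTL1 libraries was 0.285 to 0.310, against 0.331 and 0.371 from the other shscramble libraries. Without it METTL1 had log2 fold changes of −0.89 by FPKM (limma adjusted p = 0.103) and −1.42 by counts (edgeR adjusted p = 0.0206). Among the luminal markers, edgeR then also called KRT18 (0.32, adjusted p = 0.0360) and HOXB13 (0.40, adjusted p = 0.0133) higher. Limma then also called KLK3 lower (−0.57, adjusted p = 0.0460). That setting called 1989 of 11371 genes by edgeR and 189 of 12135 by limma. Values without this library are given below for the 10 genes and for list genes whose call it changed.

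The results showed a lower level of BDP1, the scaffold protein of TFIIIB, and of POLR3GL, a subunit of the polymerase, in shMETTL1 cells, and no call for the other 8 genes. By estimated counts BDP1 passed the test and POLR3GL did not. By FPKM neither passed after adjustment, though both met the criteria that the study used for differential genes (fold change over 1.5 and p under 0.05 before adjustment). Of the 7 polymerase subunits, 5 (POLR3B, POLR3C, POLR3D, POLR3E and POLR3F) had positive log2 fold changes by FPKM, between 0.06 and 0.45, none of which passed the test, and 4 did so by counts, where POLR3E was at −0.03. Over all genes tested, 52.5% had a positive value by FPKM and 49.99% by counts.

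The promoters of BDP1 and POLR3GL are printed because these genes moved in the same direction. They come from RefSeq on GRCh38.p14 and cover the 250 bases upstream of the annotated start, for BDP1 chr5:71455401-71455650 on the plus strand and for POLR3GL chr1:145964440-145964689 on the plus strand, written 5′ to 3′. Capitals mark matches, on either strand, to 4 motifs that were searched: the cAMP response element TGACGTCA, the SP1 box GGGCGG, the CCAAT box CCAAT and the E-box CACGTG.
BDP1: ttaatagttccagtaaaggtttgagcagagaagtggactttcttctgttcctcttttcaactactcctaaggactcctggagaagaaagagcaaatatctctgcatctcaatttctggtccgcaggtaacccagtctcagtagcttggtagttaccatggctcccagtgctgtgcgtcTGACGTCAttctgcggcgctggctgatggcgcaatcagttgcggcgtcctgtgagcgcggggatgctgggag
POLR3GL: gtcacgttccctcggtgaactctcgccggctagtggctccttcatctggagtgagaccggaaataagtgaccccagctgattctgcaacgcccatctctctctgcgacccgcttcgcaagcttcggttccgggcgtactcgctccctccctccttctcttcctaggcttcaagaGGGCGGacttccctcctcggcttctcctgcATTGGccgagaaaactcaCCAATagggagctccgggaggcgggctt
The search window was 300 bases, from 250 before to 50 after the start, and held 8 of the 10 genes, without POLR3D and MAF1. Positions are counted from the RefSeq start. The GENCODE gene coordinates given below differ from it. They begin at 71455615 for BDP1, inside the printed window, and at 145964702 for POLR3GL, after it. BDP1 had the response element, which begins 72 bases before its start and is held by 1.85% of 35116 promoters of the same length and by no other of the 8 genes. POLR3GL had an SP1 box 76 bases before its start and CCAAT boxes 46 bases before it (minus strand) and 28 bases before it. These motifs are common, with the SP1 box in 45.0% and the CCAAT box in 34.6% of all promoters, and in 4 and 3 of the 8 genes. The E-box, found in 7.26% of all promoters, was in 3 of the 8 (POLR3A, POLR3C and POLR3E) and in neither printed promoter. BDP1 and POLR3GL shared none of the 4 motifs. A match is a run of letters in this window and was not tested as a binding site.

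Among the 10 genes the level per transcript length differed widely. BDP1 was the highest, with a mean of 122 FPKM over the 6 libraries, above 95.6% of the 12156 genes tested. The remaining 9 ran from POLR3E at 36.8, POLR3D at 34.4, MAF1 at 30.3 and BRF1 at 22.4 FPKM down to POLR3C at 15.6, POLR3B at 14.9, POLR3GL at 12.7, POLR3A at 12.6 and POLR3F at 10.9 FPKM. Only BDP1 was separate from its neighbour in this order, since its lowest library was above the highest of POLR3E, while the library ranges of every other neighbouring pair overlapped.

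**Figure D1:**
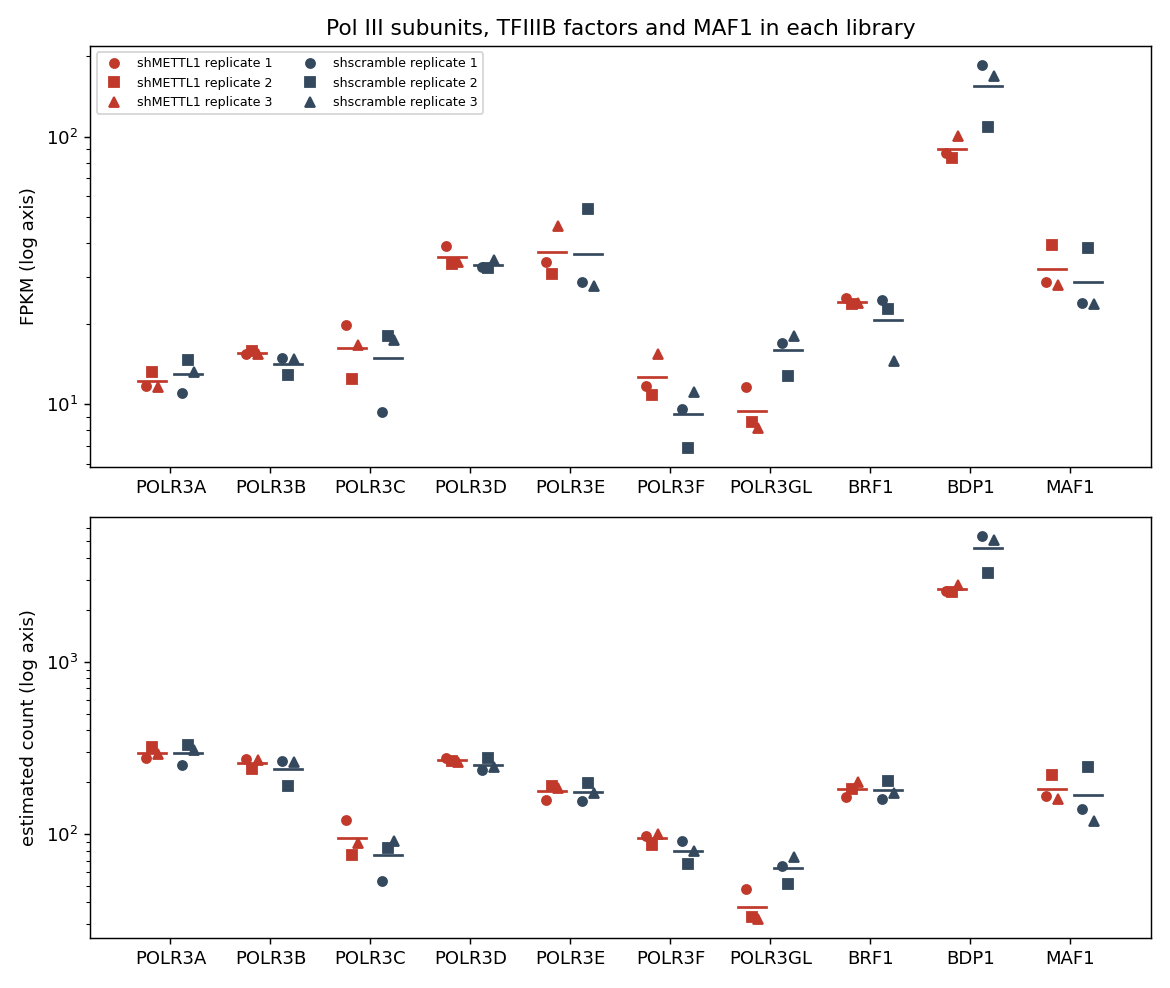
FPKM (upper panel, log axis) and estimated count (lower panel, log axis) of each of the 10 genes, with 1 point per library and a short line at the mean of each group, shMETTL1 left of shscramble. BDP1 and POLR3GL lie lower in every shMETTL1 library than in any shscramble library in both panels, and the BDP1 value of shscramble replicate 2 (109 FPKM) lies nearest to the shMETTL1 libraries.

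BDP1 (ENSG00000145734, chr5:71455615-71567820 on the plus strand of GRCh38) encodes the TFIIIB component that clamps the complex on DNA. Its FPKM was 86.9, 83.2 and 101 in the shMETTL1 libraries, against 185, 109 and 168 in the shscramble libraries. The estimated counts were 2576, 2529 and 2805 in shMETTL1, against 5363, 3280 and 5120 in shscramble. Every shMETTL1 library was lower than every shscramble library by both measures, and shscramble replicate 2 was the control closest to the knockdown libraries. The group means were 90.3 ± 9.29 against 154 ± 40.2 FPKM and 2637 ± 148 against 4588 ± 1139 counts (SD, n = 3 each), so shMETTL1 cells held 58.5% of the control level by FPKM and 57.5% by counts. By counts the decrease passed the test (edgeR log2 fold change −0.86, adjusted p = 0.00637, 4.6e-07 to 0.0523 over the alternatives). By FPKM it did not (limma log2 fold change −0.74, 95% interval −1.19 to −0.28, adjusted p = 0.177, 0.0301 to 0.426 over the alternatives).

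Single libraries decided the call of BDP1, though not its direction. Without shscramble replicate 2, the library that stood apart, the log2 fold change was −0.97 by FPKM (limma adjusted p = 0.0301) and −1.09 by counts (edgeR adjusted p = 8.39e-07), and BDP1 was then called by both. That library was the lowest BDP1 control, so leaving it out widens the difference, and these calls are no separate support. The same setting called 189 of 12135 genes by limma and 1989 of 11371 by edgeR, against 15 and 712 with all libraries. Without shMETTL1 replicate 1 the count test gave −0.85 with an edgeR adjusted p of 0.0523, and without shscramble replicate 3 it gave −0.78 with 0.0518, both just outside the threshold. BDP1 thus passed in 10 of 12 count settings and in 1 of 14 FPKM settings, and was lower in shMETTL1 in each of them. Among all genes tested, 4.86% had a lower log2 fold change by FPKM and 2.64% by counts.

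The size of the gene and its copies were also looked at. The longest transcript of BDP1 has 11073 bases, and genes with a longest transcript of at least 8000 bases had a median log2 fold change of −0.02 by FPKM (1038 genes), against 0.02 over all genes tested, and −0.04 by counts, against 0.00 over all. These medians describe the class and do not bear on a single gene, and the part of transcript length in the BDP1 value was not tested. Of the 50-base words in that transcript, 26 (0.24%) also occur in the pseudogene BDP1P.

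**Figure D2:**
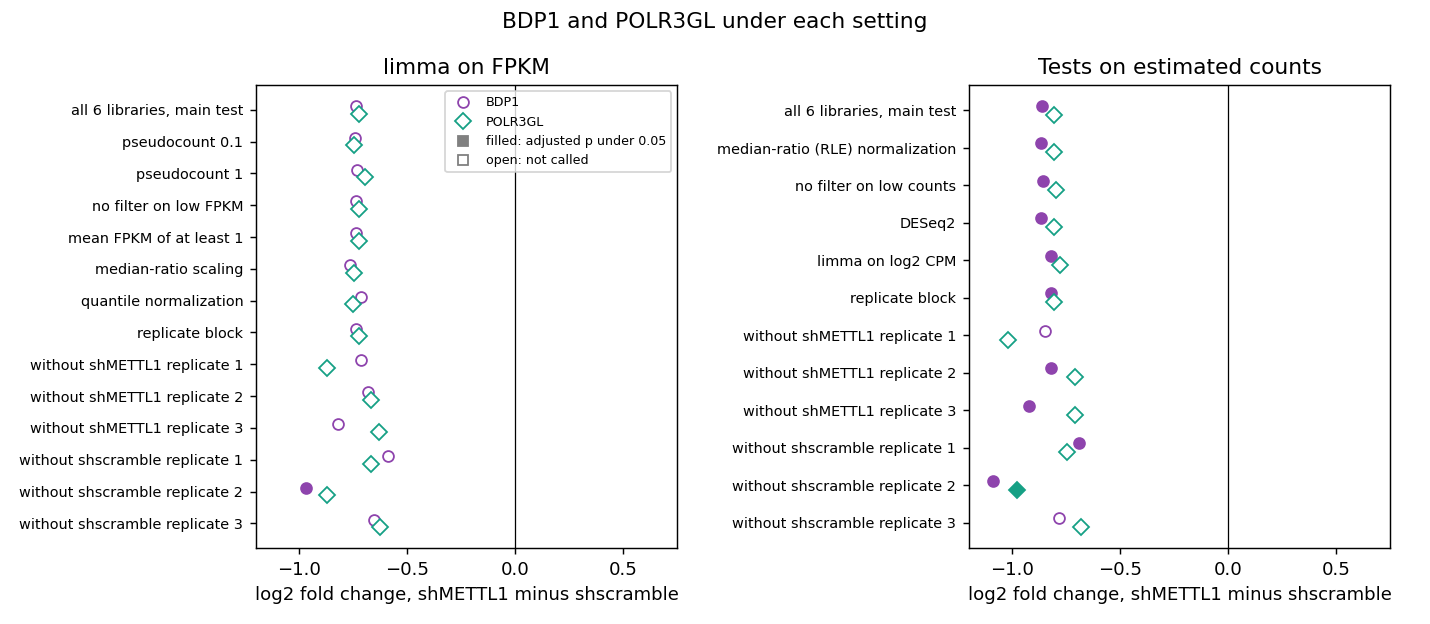
Log2 fold change (shMETTL1 minus shscramble) of BDP1 (circles) and POLR3GL (diamonds) under each setting, for limma on FPKM on the left and for the tests on estimated counts on the right, with filled symbols at an adjusted p under 0.05. All symbols lie below 0, BDP1 is filled in 10 count settings and 1 FPKM setting, and POLR3GL is filled only in the count setting without shscramble replicate 2.

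BRF1 (ENSG00000185024), the TFIIIB component that bridges TFIIIC, TBP and the polymerase, showed no such difference. Its FPKM was 25.0, 23.7 and 24.0 in shMETTL1, against 24.6, 22.8 and 14.5 in shscramble libraries, and its counts were 165, 181 and 202 against 160, 204 and 173. The groups overlapped, and the only low value was the FPKM of shscramble replicate 3, which had no counterpart in the counts. The log2 fold change was 0.26 by FPKM (limma 95% interval −0.22 to 0.74, adjusted p = 0.606, 0.430 to 0.966 over the alternatives) and −0.02 by counts (edgeR adjusted p = 0.958, 0.768 to 1.000 over the alternatives). The ratio of BDP1 to BRF1 in FPKM was 3.47, 3.52 and 4.20 in shMETTL1 libraries, against 7.53, 4.78 and 11.6 in shscramble libraries. The ratio was lower in all 3 knockdown libraries, but BDP1 alone already separated the groups. The value of 11.6 also carries the low BRF1 FPKM of shscramble replicate 3.

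POLR3GL (ENSG00000121851, chr1:145964702-145978848 on the plus strand of GRCh38) encodes the widely expressed form of a subunit whose paralog, POLR3G, is known from stem cells and tumour cells. Its FPKM was 11.6, 8.63 and 8.18 in shMETTL1 libraries, against 17.0, 12.7 and 18.1 in shscramble libraries. The estimated counts were 47.6, 32.8 and 32.3 in shMETTL1, against 65.4, 51.2 and 73.5 in shscramble. The groups did not overlap by either measure, but the gap was narrow: shMETTL1 replicate 1 was the highest knockdown library and shscramble replicate 2 the lowest control. The means were 9.47 ± 1.86 against 15.9 ± 2.83 FPKM and 37.5 ± 8.71 against 63.4 ± 11.3 counts (SD, n = 3 each), or 59.5% and 59.2% of the control level. The log2 fold change was −0.72 by FPKM (limma 95% interval −1.23 to −0.22, adjusted p = 0.216, 0.0894 to 0.466 over the alternatives). By counts it was −0.80 (edgeR adjusted p = 0.0875, 0.0192 to 0.292 over the alternatives). POLR3GL passed only in the count setting without shscramble replicate 2 (−0.98, edgeR adjusted p = 0.0192). That setting leaves out the lowest POLR3GL control and called 1989 of 11371 genes. Of its exonic bases, 21.2% lie also in the protein-coding gene ENSG00000280778 on the same strand, which has no value in the tables used here. Of the 50-base words in the longest POLR3GL transcript, 42 (2.71%) also occur in that gene. Reads of ENSG00000280778 could thus be counted to POLR3GL.

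The paralog POLR3G, a gene outside the 10, was looked at after the POLR3GL values were seen. Its estimated counts were 170, 143 and 168 in shMETTL1 libraries, against 133, 99 and 139 in shscramble libraries. Every knockdown library was above every control, but the change did not pass the test (edgeR log2 fold change 0.32, adjusted p = 0.315, 0.239 to 0.596 over the alternatives). By FPKM it was 19.5, 12.0 and 27.3 in shMETTL1, against 24.3, 13.5 and 29.02 in shscramble libraries, so the groups overlapped and the sign was the opposite (limma log2 fold change −0.19, adjusted p = 0.832). The ratio of POLR3G to POLR3GL counts was 3.57, 4.35 and 5.21 in shMETTL1 libraries, against 2.03, 1.93 and 1.89 in shscramble libraries. In FPKM the ratio was 1.68, 1.39 and 3.34 in shMETTL1, against 1.43, 1.06 and 1.60 in shscramble libraries. The ratios were separate by counts, where POLR3GL alone already separated the groups, and overlapped by FPKM. They are given as a description, without a test.

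POLR3A (ENSG00000148606), the largest catalytic subunit, measured 11.7, 13.2 and 11.7 FPKM in shMETTL1, against 11.1, 14.6 and 13.2 FPKM in shscramble libraries. The highest and the lowest library were both controls, and the difference was small (limma log2 fold change −0.08, 95% interval −0.51 to 0.36, adjusted p = 0.884, 0.782 to 0.985 over the alternatives). POLR3B (ENSG00000013503), which forms the active centre together with POLR3A, measured 15.4, 15.9 and 15.4 FPKM in shMETTL1, against 14.9, 12.9 and 14.8 FPKM in shscramble libraries. All knockdown libraries were higher, by a margin under the spread within the controls, and the test did not pass (limma log2 fold change 0.13, 95% interval −0.26 to 0.52, adjusted p = 0.767, 0.745 to 0.883 over the alternatives). Its counts overlapped, with 271, 238 and 270 in shMETTL1 against 265, 190 and 261 in shscramble libraries.

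POLR3D and POLR3E form a pair of subunits that act in initiation and termination. POLR3D (ENSG00000168495) varied least of the 10 genes, at 39.1, 33.6 and 34.0 FPKM in shMETTL1 against 32.5, 32.4 and 34.7 FPKM in shscramble libraries. The groups overlapped, and the log2 fold change was 0.10 by FPKM (limma 95% interval −0.24 to 0.43, adjusted p = 0.798, 0.785 to 0.965 over the alternatives) and 0.04 by counts (edgeR adjusted p = 0.878, 0.755 to 0.960). POLR3E (ENSG00000058600) spread far more in FPKM, with 34.0, 30.6 and 46.3 in shMETTL1 against 28.6, 53.6 and 27.7 in shscramble libraries. Its highest library was 1.94 times its lowest in FPKM but 1.27 times in counts, where shMETTL1 had 158, 189 and 186 and shscramble had 156, 199 and 173. The POLR3E groups overlapped by both measures (limma log2 fold change 0.06, 95% interval −0.55 to 0.67, adjusted p = 0.942, 0.336 to 0.965 over the alternatives). Without shscramble replicate 2, its highest library, the FPKM value was 0.37, and it was negative with other single libraries left out.

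POLR3C and POLR3F, which with POLR3GL or POLR3G form the subcomplex that contacts TFIIIB, did not follow POLR3GL. POLR3C (ENSG00000186141) measured 19.7, 12.4 and 16.7 FPKM in shMETTL1, against 9.33, 18.0 and 17.4 FPKM in shscramble libraries. The groups overlapped, and the lowest value belonged to shscramble replicate 1 (limma log2 fold change 0.16, 95% interval −0.48 to 0.80, adjusted p = 0.833, 0.596 to 0.993 over the alternatives). POLR3F (ENSG00000132664) had the highest positive value of the 10 genes by FPKM, with 11.7, 10.8 and 15.5 FPKM in shMETTL1 against 9.59, 6.90 and 11.1 FPKM in shscramble libraries. The ranges met, since shscramble replicate 3 was above shMETTL1 replicate 2, and neither test passed (limma log2 fold change 0.45, 95% interval −0.10 to 1.00, adjusted p = 0.432, 0.396 to 0.689 over the alternatives; edgeR log2 fold change 0.20, adjusted p = 0.597, 0.427 to 0.883). Without shscramble replicate 2, the lowest library, the log2 fold changes were 0.27 by FPKM and 0.05 by counts.

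MAF1 (ENSG00000179632), the repressor, measured 28.6, 39.4 and 27.9 FPKM in shMETTL1 libraries, against 23.9, 38.4 and 23.7 FPKM in shscramble libraries. Replicate 2 was the highest library in both groups, so the groups overlapped (limma log2 fold change 0.17, 95% interval −0.34 to 0.69, adjusted p = 0.763, 0.284 to 0.987 over the alternatives). Its counts were 166, 220 and 159 against 139, 244 and 119, with a log2 fold change of 0.08 (edgeR adjusted p = 0.866, 0.134 to 1.000 over the alternatives). Without shscramble replicate 2 the log2 fold change was 0.40 by FPKM and 0.39 by counts, and MAF1 was still not called.

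**Figure D3:**
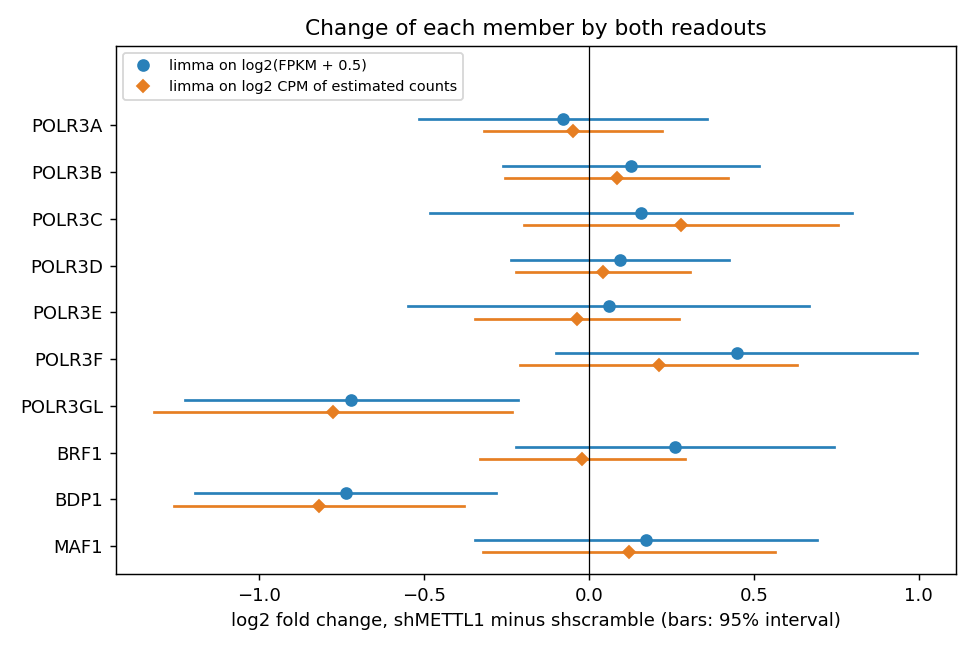
Log2 fold change (shMETTL1 minus shscramble) of each of the 10 genes with its 95% interval, by limma on log2(FPKM + 0.5) (circles) and by limma on log2 CPM of the estimated counts (diamonds). The intervals of BDP1 and POLR3GL lie below 0 by both measures, and those of the other 8 genes include 0.

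As a group, the 10 genes held few calls. By limma on FPKM, 0 of 10 were called, against 0.123% of all 12156 genes tested (15 genes), and at an unadjusted p under 0.05 there were 2 lower and 0 higher. By the criteria of the study, 2 of 10 were lower (BDP1 and POLR3GL), against 4.38% of all genes, and 0 of 10 were higher, against 4.59%. By edgeR on counts, 1 of 10 was called lower (BDP1), against 3.65% of 11248 genes tested, and 0 of 10 higher, against 2.68%. The FPKM of 3 genes did not overlap between the groups (POLR3B higher, BDP1 and POLR3GL lower), against 19.8% of all genes, and the counts of 2 genes did not overlap (BDP1 and POLR3GL), against 26.0% of all genes. The shares without overlap were near the background. The median log2 fold change of the 10 genes was 0.11 by FPKM and 0.01 by counts, against 0.02 and 0.00 over all genes tested. For the other 8 genes, the 95% interval of the log2 fold change by FPKM reached no further down than −0.55 (POLR3E), and the lowest adjusted p under any alternative was 0.284 by FPKM and 0.134 by counts, both for MAF1. Without shscramble replicate 2, these 8 genes had log2 fold changes of 0.01 to 0.40 by FPKM and of −0.11 to 0.39 by counts. In bulk RNA, fewer cells of a type and less RNA per cell cannot be told apart.

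The rest of the Pol III pathway was taken from lists of its other subunits and factors. Of the 4 further subunits particular to Pol III, none was called by limma or edgeR, all 4 had a positive log2 fold change by counts (median 0.37) and 3 of 4 by FPKM (median 0.26). POLR3K, needed for termination, measured 9.67 ± 1.95 FPKM in shMETTL1 against 6.59 ± 1.82 FPKM in shscramble cells (SD, n = 3 each) with overlap (limma adjusted p = 0.390). CRCP, a subunit of the stalk, had 214 ± 31.9 counts in shMETTL1 against 162 ± 33.0 counts in shscramble cells, also with overlap (edgeR log2 fold change 0.36, adjusted p = 0.205, 0.0992 to 0.511 over the alternatives). The direction of these 4 subunits by counts was thus opposite to that of BDP1 and POLR3GL, with no single gene past the test. Without shscramble replicate 2, edgeR called 1 of the 4, and all 4 were positive (median 0.42). That setting called 1989 of 11371 genes, so 1 call among 4 genes is no result about these subunits.

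Of 7 subunits that Pol III shares with Pol I or Pol II, 0 were called by either test, and the median log2 fold change was 0.12 by FPKM and −0.00 by counts. POLR2E, present in all 3 polymerases, measured 98.0 ± 2.31 FPKM in shMETTL1 against 65.6 ± 20.6 FPKM in shscramble cells (limma log2 fold change 0.62, adjusted p = 0.246, 0.0430 to 0.470 over the alternatives), and its counts gave 0.46 (edgeR adjusted p = 0.111, 0.00144 to 0.343). It was called in 1 FPKM and 3 count settings, among them that without shscramble replicate 2 (0.85 by FPKM, limma adjusted p = 0.0430, and 0.70 by counts, edgeR adjusted p = 0.00144). Replicate 2 was the highest POLR2E control by both measures, so leaving it out widens the difference. POLR2L, also common to the 3 enzymes, measured 68.9 ± 6.27 against 50.2 ± 11.2 FPKM (0.47, limma adjusted p = 0.314), whereas POLR2H measured 62.9 ± 2.78 against 78.6 ± 2.17 FPKM (−0.32, limma adjusted p = 0.319). For each of these 3 the FPKM did not overlap between the groups and the counts did.

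Of 8 genes for TFIIIC, TFIIIA and TBP, 0 were called by either test, with a median log2 fold change of 0.10 by FPKM and 0.01 by counts. Those with the smallest p by limma were GTF3C2 and GTF3C6, subunits of TFIIIC, at 25.9 ± 5.67 against 20.3 ± 2.82 FPKM and 70.6 ± 4.71 against 63.9 ± 6.55 FPKM, and GTF3A, which encodes TFIIIA of the 5S rRNA genes, at 49.2 ± 4.42 against 57.1 ± 6.12 FPKM (shMETTL1 against shscramble). All 3 overlapped between the groups. Of 8 genes of the SNAPc type of promoter (SNAPc subunits, BRF2, POU2F1 and ZNF143), 0 were called by either test, with medians of −0.05 by FPKM and 0.01 by counts. POU2F1, an activator at these promoters, had 21.6 ± 1.41 against 28.4 ± 4.50 FPKM (limma log2 fold change −0.38, adjusted p = 0.369). BRF2, which replaces BRF1 at these promoters, had 4.56 ± 0.515 against 3.77 ± 0.652 FPKM, and SNAPC2 had 12.6 ± 1.91 against 11.01 ± 3.80 FPKM, both with overlap.

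Of 24 genes that process, protect or modify Pol III transcripts, 0 were called by limma, and edgeR called 1 higher and 1 lower, a share near the 2.68% higher and 3.65% lower of all genes, so the calls are no result about the group. TSEN15, a subunit of the tRNA splicing endonuclease, rose to 215 ± 17.8 counts in shMETTL1, against 138 ± 19.8 counts in shscramble cells (SD, n = 3 each; edgeR log2 fold change 0.59, adjusted p = 0.0272, 0.00754 to 0.145 over the alternatives). LARP4, a La-related protein known mainly for binding the poly(A) tail of mRNA, fell to 586 ± 18.9 counts in shMETTL1, against 759 ± 64.9 counts in shscramble cells (edgeR log2 fold change −0.43, adjusted p = 0.0365, 0.00161 to 0.197 over the alternatives). Neither gene overlapped between the groups, and both calls were lost when any library other than shscramble replicate 2 was left out. Without that library the edgeR log2 fold changes were 0.65 (adjusted p = 0.00754) for TSEN15 and −0.52 (adjusted p = 0.00161) for LARP4. LARP7 (−0.53, edgeR adjusted p = 0.0128) and SSB (−0.47, edgeR adjusted p = 0.0136), which bind the ends of Pol III transcripts, were then called too, in a setting that called 1989 of 11371 genes. TSEN54, another subunit of the endonuclease, measured 20.0 ± 8.84 FPKM in shMETTL1 against 10.02 ± 1.39 FPKM in shscramble cells (limma log2 fold change 0.87, adjusted p = 0.267), and its counts overlapped.

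**Figure D4:**
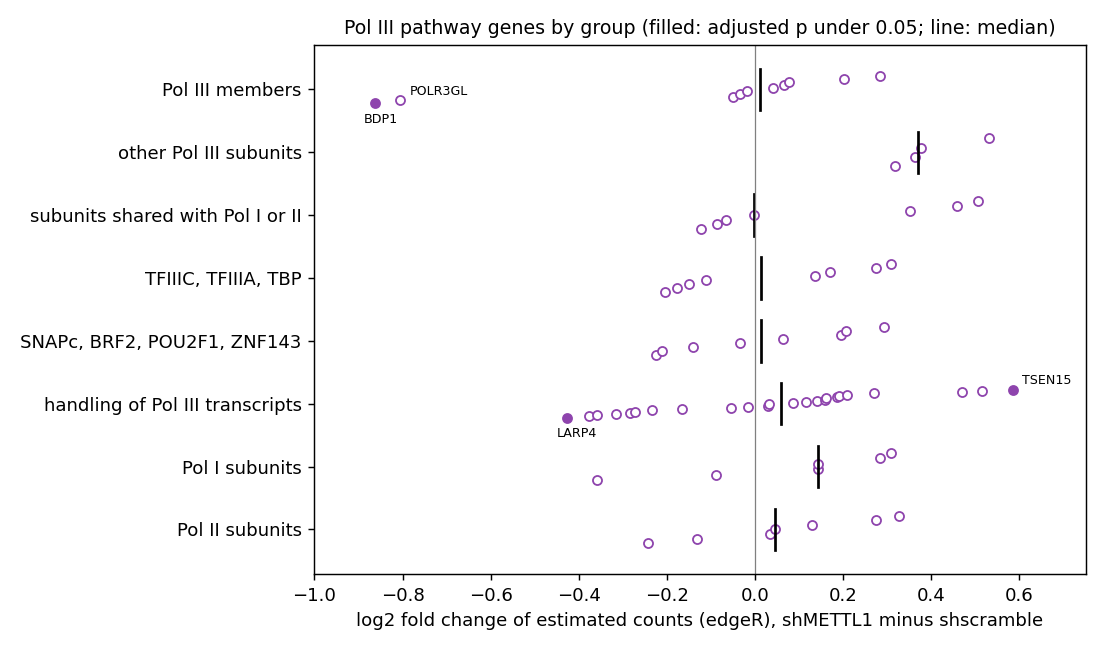
Log2 fold change of estimated counts (edgeR, shMETTL1 minus shscramble) for every tested gene of the Pol III lists and of the Pol I and Pol II subunits, with 1 circle per gene, filled at an adjusted p under 0.05, and a line at the median of each list. BDP1 lies farthest to the left, next to POLR3GL, the 4 other Pol III subunits lie right of 0, and the only filled circles besides BDP1 are LARP4 and TSEN15.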

How the data were processed

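RNA-seq was performed on 6 libraries, and groups were taken from the sample titles. Per the labels, reads were handled with HISAT2 2.0.4, cutadapt 1.9.3, Cuffdiff and Cufflinks on hg19, in an order that the submitters' notes leave out. The authors deposited FPKM and an estimated count per gene. Deposited FPKM values were scaled by the authors to transcript length and library depth, so reads assigned to another isoform can move them. As deposited, most estimated counts were fractional (1.80% to 2.51% whole within 0.001) and summed to between 3389897 and 3604835 per library, a total that may be scaled, so the true depth is unknown and no counting interval was computed.

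Genes whose mean FPKM reached 0.5 were tested with limma 3.58.1 (R 4.3.3) on log2(FPKM + 0.5), with trend and robust prior, between the groups without pairing. Fold changes are on this scale, which understates low genes. Counts were rounded to whole numbers, filtered by filterByExpr and compared with edgeR 4.0.16 (quasi-likelihood F test, TMM). Tests were two-sided, adjusted by Benjamini-Hochberg over all genes, and called at 0.05. The code was tested on simulated data. The alternatives were pseudocounts of 0.1 and 1, no filter, a mean FPKM of at least 1, median-ratio scaling, quantile normalization, DESeq2 1.42.0, limma on log2 CPM (prior count 2), a replicate block and leaving out each library.

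Symbols came from a gene name table, which matched 18977 of 20308 identifiers (93.4%), and coordinates and overlaps from GENCODE on GRCh38, not from the build of the tables. Genes named were the 10 genes, METTL1, and from each list the up to 3 with the smallest limma p plus any called. Some of these are not reported here. POLR3G, LARP7, SSB and the cell type markers given with values were named after their values were seen. The genes and lists were chosen with earlier results of these data known. None of 21 Pol III transcripts on the list was analysed here.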

Additional observations from a re-analysis of the deposited data

How the results depend on the processing

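The direction and the call of the 10 genes, over both readouts, were the same in 120 of 120 values under the alternatives that used all 6 libraries, and in 104 of 120 values with 1 library left out. With 1 library left out, the log2 fold change changed sign for POLR3A (−0.18 to 0.0098), POLR3C (−0.14 to 0.33) and POLR3E (−0.11 to 0.37) by FPKM and for POLR3B (−0.11 to 0.19), POLR3E (−0.082 to 0.044), BRF1 (−0.11 to 0.051) and MAF1 (−0.11 to 0.39) by counts, none of them called. The number of the 10 genes called ran from 0 to 1 by FPKM, against 0 with all libraries, and from 0 to 2 by counts, against 1. The number past the criteria of the study was 2 each time. Over all genes, limma called 15 by FPKM, 4 with no filter on low values, and 3 to 189 with 1 library left out (189 without shscramble replicate 2). EdgeR called 712 by counts, 1094 with no filter, and 270 to 1989 with 1 library left out (1989 without shscramble replicate 2, 270 without shscramble replicate 3). Median-ratio scaling of FPKM moved the genes past the criteria of the study to 508 higher and 587 lower, from 558 and 532.

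The labels do not say whether libraries with the same replicate number were prepared together. Their deviations from the group means correlated at 0.002, 0.053 and −0.024, which cannot settle whether they shared a batch. With a replicate block limma called 6 genes by FPKM, against 15 without it, and edgeR 1015 by counts, against 712. The calls among the 10 genes were 0 and 1, as without the block. The depth behind the values is unknown, so low counts such as those of POLR3GL carry a counting error that was not computed.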

Other observations

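Subunits of the other polymerases were set beside the Pol III genes. Of 6 subunits particular to Pol I, 0 were called by limma or edgeR, and the median log2 fold change was 0.25 by FPKM and 0.14 by counts. POLR1F, an initiation subunit, measured 15.2 ± 4.29 FPKM in shMETTL1 against 9.07 ± 1.49 FPKM in shscramble cells without overlap (SD, n = 3 each; limma log2 fold change 0.69, adjusted p = 0.270), while its counts overlapped. POLR1A, the largest catalytic subunit, had 633 ± 16.1 counts in shMETTL1 against 494 ± 46.5 counts in shscramble cells without overlap, and missed the threshold (edgeR log2 fold change 0.31, adjusted p = 0.0957, 0.0521 to 0.256 over the alternatives). POLR1B had 267 ± 26.7 counts against 213 ± 29.1 counts (edgeR log2 fold change 0.28, adjusted p = 0.221).

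Of 7 subunits particular to Pol II, 0 were called by either test, with a median log2 fold change of 0.02 by FPKM and 0.05 by counts. POLR2I measured 29.7 ± 6.99 FPKM in shMETTL1 against 22.7 ± 5.29 FPKM in shscramble cells, POLR2G 26.7 ± 0.881 against 22.8 ± 3.46 FPKM and POLR2B 112 ± 28.9 against 132 ± 34.8 FPKM, all with overlap. None of the Pol I and Pol II subunits had a negative log2 fold change as far from 0 as BDP1 or POLR3GL by counts. Over all genes tested, 2.64% had a lower value than BDP1 and 3.15% a lower value than POLR3GL. So few genes lie that low that the comparison is a description only.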
